A study of Mus musculus with 14 samples.

Results

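The Hox genes of C2C12 cells, a mouse myoblast line derived from thigh muscle, were taken from the deposited expression table as every row whose gene symbol is Hoxa, Hoxb, Hoxc or Hoxd followed by a number. 39 of the 24016 transcripts in the table met this rule, 11 in the HoxA cluster, 10 in HoxB, 9 in HoxC and 9 in HoxD. No measured value was used to choose them. The cells were transfected with control siRNA (siCtrl) or with a pool of siRNAs against Klf5 (siKlf5), and poly(A) RNA was sequenced on day 0, before the change to differentiation medium, and on days 1, 2 and 3 in that medium. All groups share the cell line and its culture, the knockdown is transient and partial, and each siRNA was sequenced once on each day, which gives 8 libraries without replicates. Accordingly, the tests below measure how the siRNA difference varied between days, not how cultures varied.

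Hox genes encode transcription factors that bind DNA through a homeodomain and give cells of the embryo their position along the body axis and the limb. They lie in clusters on different chromosomes, and genes at the same place in different clusters, called paralogues, are numbered alike. Low numbers stand at the 3' end of a cluster and are used at the head end of the embryo, whereas high numbers stand at the 5' end and are used in the trunk, the tail and the distal limb. Muscle cells and fibroblasts of the adult retain a set of active Hox genes that differs with the part of the body from which they came. Polycomb proteins keep unused Hox genes silent, and Trithorax proteins keep used ones active.

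Values are FPKM, reads per length of transcript and per library, scaled by the authors to a matrix total of 10000000, which makes them larger than usual FPKM. The median transcript of the table had a mean of 6.95 over the 8 libraries. A library held between 7850497 reads (siCtrl, day 1) and 20301506 reads (siCtrl, day 2) over the table. Klf5, the targeted gene, had a lower value in the siKlf5 library on 4 of 4 days, at 35.1 against 224 on day 0, 160 against 381 on day 1, 192 against 614 on day 2 and 211 against 933 on day 3. All 6 myoblast markers examined passed a mean of 1, among them Myod1 at 493 and Des at 1845, and 17 of 20 markers of other cells did not. The exceptions were Sox9 at 205, Krt14 at 16.6 and Cdh1 at 13.5, whereas Epcam, Tie1, Cd3e, Plin1 and Snap25 were at 0 in all 8 libraries. The summed level of the 39 Hox genes was lowest in the library of least depth, siCtrl on day 1, at 795. The siKlf5 library of day 1, of similar depth with 8119452 reads, had a sum of 1007.

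C2C12 cells expressed the HoxA and HoxC clusters and hardly any HoxB or HoxD gene. All 11 HoxA genes and all 9 HoxC genes had a mean of at least 1 over the 8 libraries, compared with 2 of 10 HoxB genes and 0 of 9 HoxD genes, so that 22 of 39 passed this filter. HoxC genes held 57.7% of the summed Hox FPKM on average (55.5 to 59.5% over the 8 libraries) and HoxA genes 41.5% (39.3 to 44.2%). HoxB genes held 0.726% and HoxD genes 0.115%. The 5' genes of positions 9 to 13 held 78.8% (75.3 to 82.7%), those of positions 5 to 8 held 14.4% and those of positions 1 to 4 held 6.76%. Position 10 alone held 34.9%, position 11 held 24.8% and position 9 held 12.8%.

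**Figure D1:**
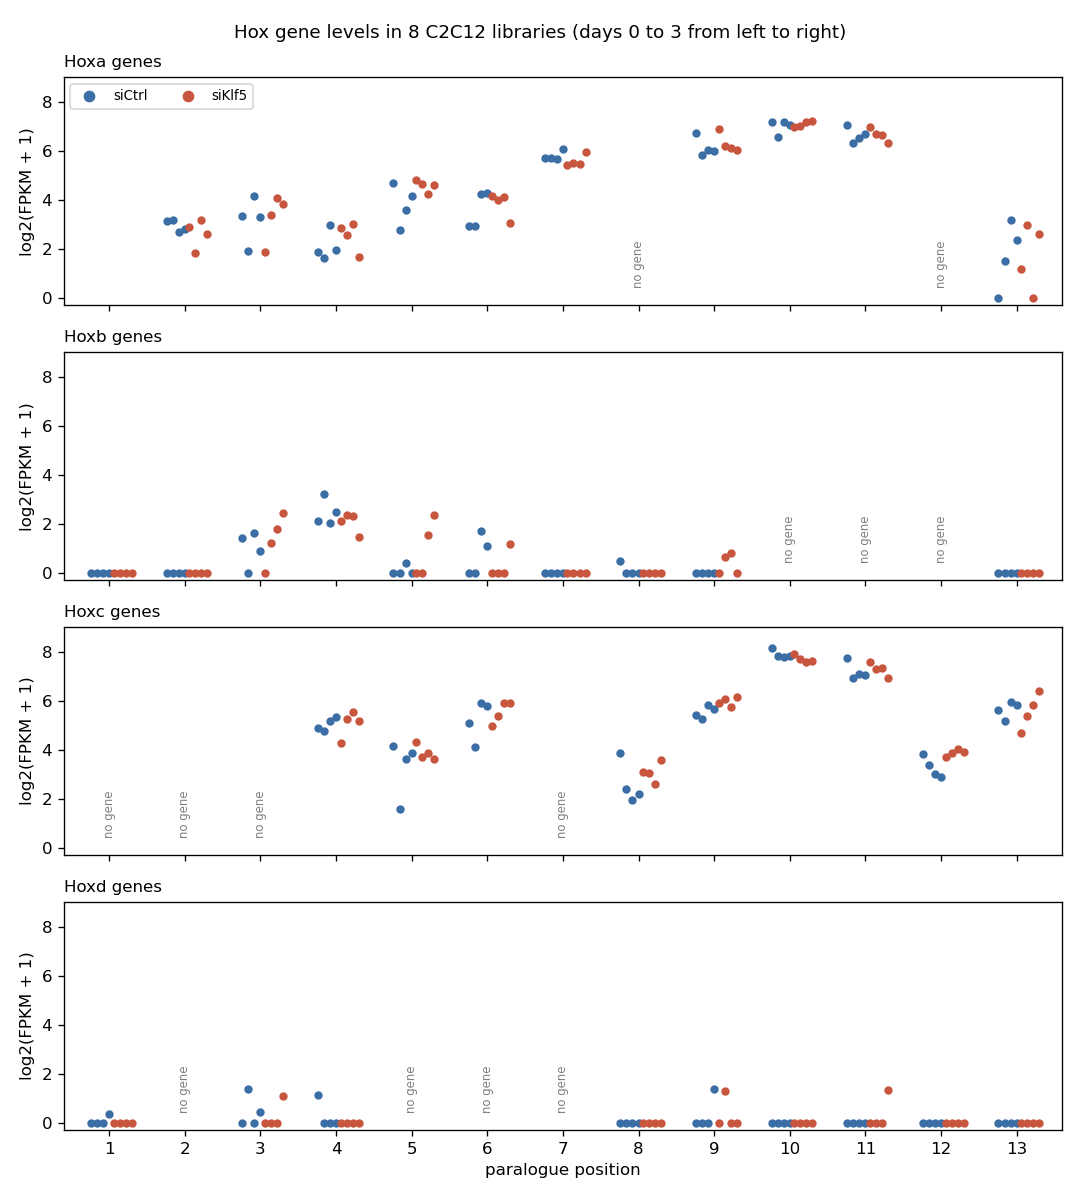
Level of 38 of the 39 Hox genes as log2(FPKM + 1) against paralogue position, with 1 panel per cluster and 1 point per library (blue, siCtrl; red, siKlf5; days 0 to 3 from left to right within each colour). The HoxA and HoxC genes of positions 9 to 11 have the highest means, though the points of Hoxc9 overlap those of Hoxa7 and Hoxc13. Position 12 of HoxC and position 13 of HoxA lie far below them, and most HoxB and HoxD points lie at 0.

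Hoxc10, a gene of lumbar identity and of the hindlimb, was the highest Hox gene. It lies on chromosome 15 of mm9 from 102797227 to 102802328 on the plus strand, and its mean FPKM was 223, above 87.7% of all transcripts in the table. Its values were 286, 223, 218 and 228 in siCtrl cells on days 0, 1, 2 and 3, and 236, 206, 191 and 197 in siKlf5 cells. The lowest of these exceeded every value of the other Hox genes except that of Hoxc11 in siCtrl cells on day 0. Its HoxA paralogue Hoxa10 (chromosome 6, 52181196 to 52190853, minus strand) was the highest gene of HoxA with a mean of 132.

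The sequence upstream of Hoxa10 is shown with those of the expressed paralogues at position 9, Hoxc9 and Hoxa9. Each is the 250 bases of mm9 that precede the start of the deposited transcript, written 5' to 3' on the strand of the gene, and holds no base of a GENCODE exon. Capitals mark matches on either strand to CCNCNCCC, letters known for binding by the Klf and Sp families. The Hoxa10 window, at chr6:52190854-52191103 on the minus strand, stands for the highest gene of HoxA. The Hoxc9 window lies at chr15:102807213-102807462 on the plus strand. That of Hoxa9, the Hox gene with the lowest adjusted p in limma on day 3, lies at chr6:52177370-52177619 on the minus strand. The deposited start equals the outer GENCODE start of the gene for Hoxa10, but lies 593 bases from it for Hoxc9 and 3719 bases for Hoxa9. It equals that start for 10 of the 39 Hox genes.
Hoxa10: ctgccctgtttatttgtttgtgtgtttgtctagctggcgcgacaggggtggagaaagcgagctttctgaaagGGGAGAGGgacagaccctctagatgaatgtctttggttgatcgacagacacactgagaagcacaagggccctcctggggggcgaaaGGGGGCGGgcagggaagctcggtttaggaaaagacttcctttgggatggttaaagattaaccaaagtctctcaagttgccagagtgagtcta
Hoxc9: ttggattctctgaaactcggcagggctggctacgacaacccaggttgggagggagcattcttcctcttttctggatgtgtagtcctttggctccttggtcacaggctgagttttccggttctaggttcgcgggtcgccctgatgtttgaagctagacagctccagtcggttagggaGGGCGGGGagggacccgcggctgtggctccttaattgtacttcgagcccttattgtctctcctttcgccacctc
Hoxa9: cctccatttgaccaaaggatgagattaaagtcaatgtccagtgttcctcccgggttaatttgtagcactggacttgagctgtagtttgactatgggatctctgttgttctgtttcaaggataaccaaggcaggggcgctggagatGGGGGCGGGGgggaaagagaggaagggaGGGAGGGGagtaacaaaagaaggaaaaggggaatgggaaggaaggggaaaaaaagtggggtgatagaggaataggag
Over all 39 Hox genes, 27 windows (69.2%) held at least 1 match, compared with 52.0% of the 23950 windows of this length that could be read for the table. The count was 16 of 20 (80%) for HoxA and HoxC genes and 11 of 19 (57.9%) for HoxB and HoxD genes. CCGCCC, which the paper names as the core of the Sp1 motif, was in 41.0% of Hox windows and 41.6% of all windows. It was in 10 of 20 HoxA and HoxC windows and 6 of 19 HoxB and HoxD windows. CANNTG, the E-box letters bound by MyoD and other helix-loop-helix factors, was in 64.1% of Hox windows and 62.9% of all windows. TATAAA, searched on both strands, was in 15.4% of Hox windows and 12.0% of all, with 1 of 20 HoxA and HoxC windows and 5 of 19 HoxB and HoxD windows. The Hox windows had a median of 13 CpG sites, against 9 in all windows. Motifs were counted separately where they share bases, and a match is not a bound site.

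Among HoxC genes, Hoxc11 (chromosome 15, 102784957 to 102787132), a gene of sacral and hindlimb identity, followed Hoxc10 with a mean of 153. It read 210, 119, 135 and 133 in siCtrl cells on days 0 to 3 and 190, 158, 160 and 121 in siKlf5 cells. Hoxc9, which sets thoracic identity in motor neurons, came next with a mean of 54.2. Its values were 41.8, 37.3, 56.1 and 50.1 in siCtrl cells and 58.7, 65.6, 53.1 and 71.0 in siKlf5 cells. Hoxc13 (102751562 to 102759245), known for its part in hair and nail, had a mean of 50.3, much above the 11.3 of its neighbour Hoxc12. The other HoxC genes were Hoxc6 at 44.0, Hoxc4 at 33.2, Hoxc5 at 12.6 and Hoxc8 at 6.87. The level thus did not fall steadily with position, since Hoxc8 lay below both Hoxc6 and Hoxc9 in all 8 libraries.

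Among HoxA genes, Hoxa11 and Hoxa9 followed Hoxa10. Hoxa10 read 144, 93.3, 144 and 133 in siCtrl cells on days 0 to 3 and 124, 128, 142 and 146 in siKlf5 cells. Hoxa11 (52192104 to 52195809 on chromosome 6), needed for the forearm and lower leg, had a mean of 101, with 130, 79.2, 90.6 and 101 in siCtrl cells and 126, 101, 98.9 and 78.0 in siKlf5 cells. Hoxa9 (52173096 to 52177369), which also acts in blood progenitors, had a mean of 76.5. Hoxa7 had a mean of 50.9, Hoxa5, needed in the lung, 18.7, and Hoxa6 13.1. The 3' genes Hoxa2, Hoxa3 and Hoxa4, known for the hindbrain, the pharyngeal arches and the neck, had means between 4.36 (Hoxa4) and 9.83 (Hoxa3). Hoxa13, used in the hand and foot, was lowest in the cluster with a mean of 3.41 and stood at 0 in siCtrl cells on day 0 and in siKlf5 cells on day 2.

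In HoxB only Hoxb4 and Hoxb3 reached a mean of 1. Hoxb4, known for its action in blood stem cells, read 3.37, 8.22, 3.14 and 4.57 in siCtrl cells on days 0 to 3 and 3.27, 4.10, 4.02 and 1.74 in siKlf5 cells. Hoxb3 had a mean of 1.61 and stood at 0 in 2 of 8 libraries, siCtrl on day 1 and siKlf5 on day 0. The third, Hoxb5, had a mean of 0.794 and was above 0 in 3 of 8 libraries. In HoxD the highest were Hoxd3 at 0.389, Hoxd9 at 0.383 and Hoxd11, which was above 0 in 1 of 8 libraries. HoxB genes had 289 reads in all libraries together and HoxD genes 41, compared with 15041 for HoxA and 15309 for HoxC.

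8 members had no read in any library, namely Hoxb1, Hoxb2, Hoxb7 and Hoxb13 in HoxB and Hoxd8, Hoxd10, Hoxd12 and Hoxd13 in HoxD. With each read counted singly, a count of 0 over the 8 libraries allows up to 3 reads. Against that limit Hoxc10 was 1462-fold (Hoxb7) to 2924-fold (Hoxd12) higher. Reads of the same fragment are not independent, and the ratio intervals below take reads in units of 6 for this reason. In such units the limit would be higher and the folds smaller, so these folds are not lower bounds. The limit of 3 reads covers counting error only. Hoxd10, the paralogue of the highest pair, Hoxc10 and Hoxa10, was thus among the genes with no read.

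The order of the 22 expressed members held in broad steps rather than between neighbours. Of the 21 pairs of neighbours in the order of mean FPKM, 0 had ranges over the 8 libraries that did not overlap. Hoxc10 lay above Hoxc11, and Hoxa11 above Hoxa9, in all 8 libraries, and no other neighbouring pair kept its order in all of them. Part of the level of 7 members could come from the other strand, because reads of both strands were counted and GENCODE places antisense exons over them. This overlap was 800 bases for Hoxa11 (Hoxa11as), 503 for Hoxa3 and 1140 for Hoxb3 (Hoxb3os). Of the 741 member pairs, 2 shared a run of 50 exon bases, and 1 of these, Hoxd3 and Hoxd4, overlap in the genome.

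**Figure D2:**
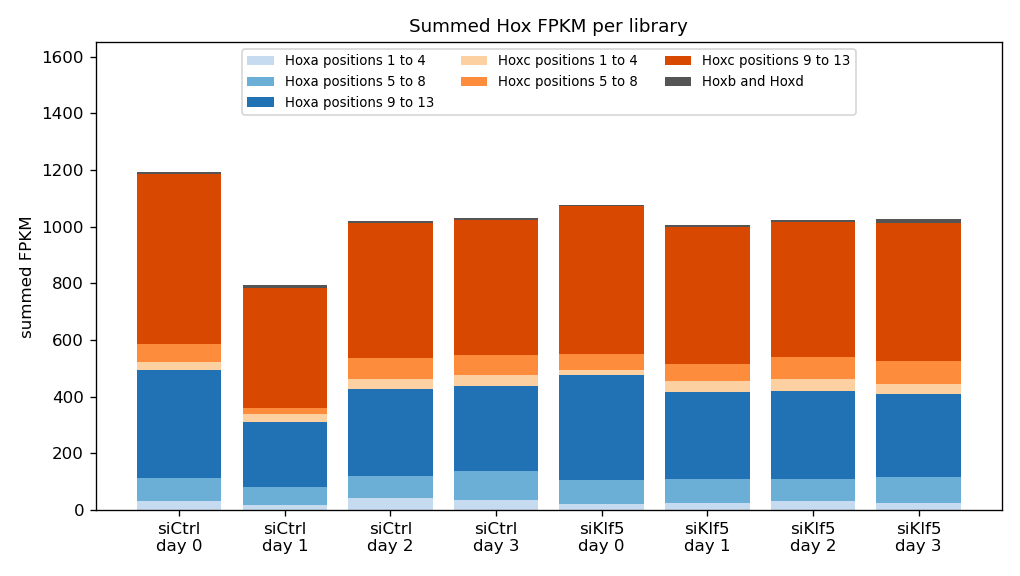
Summed FPKM of the Hox genes in each of the 8 libraries, stacked by cluster and position (blue, HoxA; orange, HoxC; dark grey, HoxB and HoxD together). The sum lies between 795 (siCtrl, day 1) and 1191 (siCtrl, day 0), and the HoxC and HoxA genes of positions 9 to 13 make up most of every bar.

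The Hox genes were next followed through differentiation. In contrast to the 6 myotube markers, which all rose (Ckm, the muscle creatine kinase, by 5.68 on the log2 scale), 19 of the 22 expressed Hox genes passed no test between day 3 and day 0. The change from day 0 was tested with limma over both siRNA courses on log2(FPKM + 1), with p-values adjusted over 14312 transcripts. On day 3, 2 of 22 Hox genes were lower, while 18.3% of all transcripts were, and 1 of 22 was higher, while 13.3% of all were. The median change of the 22 was -0.07, and that of all transcripts was -0.08. On day 1 the count was 1 lower (10.6% of all) and 0 higher (7.08% of all), and on day 2 it was 1 lower (12.7%) and 0 higher (12.2%). At an unadjusted p under 0.05 in limma, 6 of 22 were lower on day 1 (19.5% of all transcripts) and 0 higher (11.6% of all). On day 2, at the same threshold, 3 were lower (18.7% of all) and 4 higher (17.5% of all). In RNA of whole cultures, fewer cells of a type and less RNA per cell cannot be told apart, and the share of myotubes rises over the same days. Of the 3 markers of other cells above the filter, Cdh1 was higher on day 3 (log2 change 2.69, limma adjusted p = 0.00564). The part of either in these values was not tested.

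Hoxa9 had the lowest adjusted p of the Hox genes. It read 106, 56.0, 64.5 and 63.0 in siCtrl cells on days 0 to 3 and 117, 71.8, 68.3 and 65.0 in siKlf5 cells, so that both day 0 libraries lay above all 6 later ones. The limma log2 change was -0.81 ± 0.19 (SE) on day 1 (adjusted p = 0.0141), -0.74 ± 0.19 on day 2 (adjusted p = 0.0160) and -0.79 ± 0.19 on day 3 (adjusted p = 0.00869). The day 3 change was between -0.87 and -0.68 in all 16 alternatives run, and 12 of these passed the threshold in limma. It missed it without the siCtrl day 0 library (adjusted p = 0.0680), without siKlf5 day 0 (0.0676), without siKlf5 day 3 (0.0719) and with no filter on low values (0.0979).

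Hoxc11 also fell, by 0.66 ± 0.17 on the log2 scale on day 3 (limma, adjusted p = 0.0146), and both its day 0 libraries lay above all later ones. The adjusted p was 0.0535 on day 1 and 0.0877 on day 2. The call on day 3 was lost in limma without siCtrl day 0 (log2 change -0.50, adjusted p = 0.154) and without siKlf5 day 3 (-0.50, adjusted p = 0.138). It was also lost with no filter (adjusted p = 0.210) and without the variance trend and robust options together (adjusted p = 0.0817).

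Hoxc13 was the one member that rose. It read 47.7, 35.3, 60.7 and 56.4 in siCtrl cells on days 0 to 3 and 24.6, 41.1, 54.9 and 82.1 in siKlf5 cells, and the day 0 value of siCtrl cells lay within the range of the later ones. The limma log2 change on day 3 was 0.97 ± 0.32 (adjusted p = 0.0455). This value rested on the siKlf5 libraries. Without siKlf5 day 0 it was 0.40 (adjusted p = 0.437), without siKlf5 day 3 it was 0.56 (adjusted p = 0.358), and without siCtrl day 0 it was 1.53 (adjusted p = 0.0129). It also missed the threshold without either day 2 library (adjusted p = 0.0950 and 0.0956), with no filter (0.365) and without the variance trend and robust options together (0.140).

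None of the other members passed the adjusted threshold on day 3. Hoxc10 read lower on every later day of both courses than on day 0 of the same course, with a limma change of -0.29 ± 0.12 (adjusted p = 0.0897), and Hoxa11 had -0.52 ± 0.20 (adjusted p = 0.0695). Hoxa10 had 0.06 ± 0.18 (adjusted p = 0.827) and Hoxc9 0.26 ± 0.25 (adjusted p = 0.462). For Hoxc6, a gene of thoracic identity, the change was 0.81 ± 0.34 (adjusted p = 0.0962), and for Hoxc4 it was 0.70 ± 0.32 (adjusted p = 0.128). Hoxb4 had -0.15 ± 0.64 and Hoxb3 0.97 ± 0.95, with adjusted p of 0.894 and 0.480. The median width of the 95% interval over the 22 members was 2.03 on the log2 scale, so a change of 2-fold in a low member was within error.

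**Figure D3:**
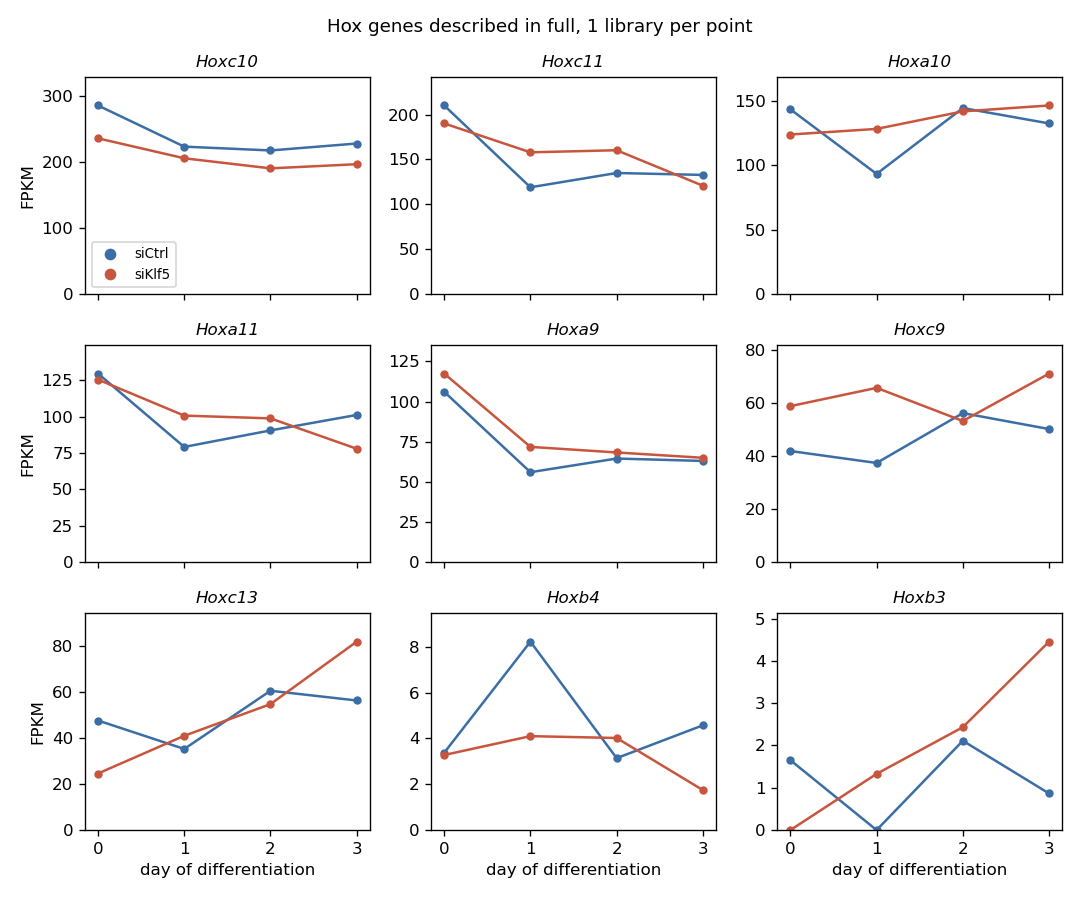
FPKM of the 9 Hox genes described in full against day of differentiation, with 1 point per library (blue, siCtrl; red, siKlf5), and an axis from 0 in each panel. Hoxa9 and Hoxc11 are highest on day 0 in both courses, Hoxc13 climbs in the siKlf5 course, and Hoxb4 and Hoxb3 stay under 10.

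Each course was also read on its own, with no test. In siCtrl cells, 3 of 22 Hox genes were over 1.5-fold higher on day 3 than on day 0 (21.8% of all transcripts) and 4 of 22 were over 1.5-fold lower (22.7% of all). In siKlf5 cells, 6 were higher (21.0% of all) and 7 lower (23.0% of all). The split in siKlf5 cells was 7 higher and 3 lower after median-ratio scaling, where all transcripts also moved from 3002 higher and 3291 lower to 3423 and 2658. In the direction of the ratio, 13 of 22 members (59.1%) were alike in both courses, 7 lower and 6 higher, compared with 75.1% of all transcripts. Hoxc13 had log2 ratios of 0.24 in siCtrl cells and 1.70 in siKlf5 cells, and whether the courses differ could not be tested with 1 library each. The share of positions 9 to 13 in the summed Hox FPKM went from 82.1% on day 0 to 75.3% on day 3 in siCtrl cells and from 82.7% to 76.1% in siKlf5 cells. The share of positions 5 to 8 went from 12.3% to 16.9% and from 13.3% to 17.3%.

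The RNA-seq part of the study asked what Klf5 knockdown changes, and the Hox genes were therefore compared between siKlf5 and siCtrl cells. In the limma fit over the 4 days, 0 of 22 Hox genes were called, and 0.168% of all transcripts (24 of 14312) were. At an unadjusted p under 0.05 there were 3 of 22, while 10.0% of all transcripts were, and the lowest adjusted p among the 22 was 0.456. The fit had 3 residual degrees of freedom, and Klf5 itself, with a log2 change of -1.92 ± 0.23, did not pass it either (limma, adjusted p = 0.0653). A p over the threshold here does not show that a Hox gene kept its level.

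The 3 members with an unadjusted p under 0.05 were Hoxc10, Hoxc9 and Hoxa5. Hoxc10 was lower in siKlf5 cells on 4 of 4 days, with a limma change of -0.20 ± 0.08 (95% interval -0.39 to -0.01, adjusted p = 0.467). Hoxc9 was higher on 3 of 4 days, with 0.42 ± 0.18 (interval 0.03 to 0.81, adjusted p = 0.456). Hoxa5 was higher on 4 of 4 days, with values of 26.9, 24.02, 17.9 and 23.0 in siKlf5 cells against 24.97, 5.83, 10.8 and 16.7 in siCtrl cells. Its limma change was 0.77 ± 0.32 (interval 0.06 to 1.48, adjusted p = 0.456). Hoxa9 was also higher on 4 days (0.16 ± 0.13) and Hoxa7 lower on 4 days (-0.22 ± 0.15), neither past the test. The 4 members with 1 direction on all days were 18.2% of the 22, and 18.1% of all transcripts had 1 direction on all days.

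The intervals of the highest members were narrower than those of the lowest, for a siRNA change taken as the same on all 4 days. For Hoxc11 the 95% interval of the siKlf5 change in limma was -0.17 to 0.36, for Hoxa10 it was -0.19 to 0.37, for Hoxa11 it was -0.30 to 0.32, and for Hoxa9 it was -0.14 to 0.45 on the log2 scale. It was -0.59 to 0.43 for Hoxc13, and it was wide for Hoxb4 (-1.41 to 0.60) and Hoxb3 (-1.12 to 1.87). These intervals carry the spread between days of single libraries. Log2 ratios of single days lay outside them for Hoxa10 (0.46 on day 1) and Hoxc11 (0.41 on day 1). The same held for Hoxa11 (0.34 on day 1 and -0.37 on day 3), while all ratios of Hoxa9 lay within its interval. The intervals therefore do not bound the effect on a given day or in other cultures.

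**Figure D4:**
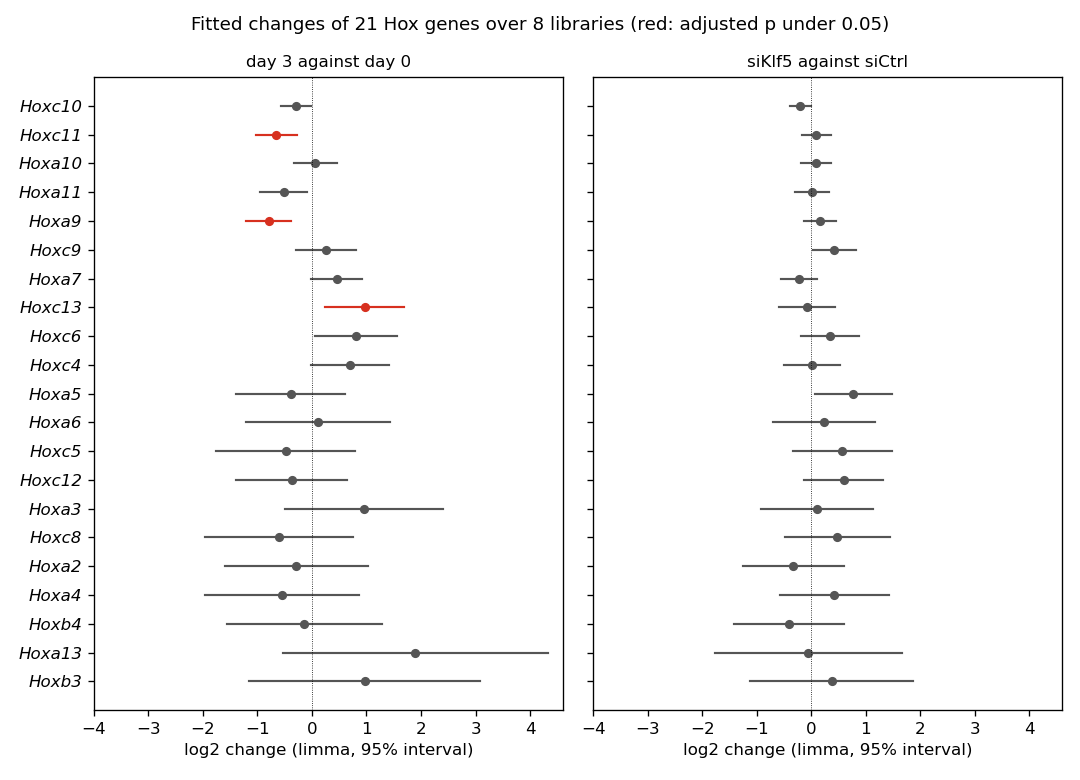
Log2 change of 21 of the 22 expressed Hox genes from the limma fit (points) with its 95% interval (lines), in order of mean FPKM from Hoxc10 at the top, for day 3 against day 0 (left) and siKlf5 against siCtrl (right). Hoxa9, Hoxc11 and Hoxc13 are marked red on the left as past an adjusted p of 0.05, none is marked on the right, and the intervals widen toward the low members at the bottom.

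Day by day, the libraries differed most on day 1. There 11 of 22 Hox genes were over 1.5-fold higher in siKlf5 cells, compared with 15.6% of all transcripts, and 2 were over 1.5-fold lower (10.3% of all). The median log2 ratio was 0.58 for the 22 and 0.03 for all transcripts. The ratio was largest for Hoxc5 (12.1 against 2.00), followed by Hoxa5 (24.02 against 5.83) and Hoxa13 (6.91 against 1.80). However, 0 of the 22 counting intervals left out 0 when reads were taken in units of 6, the number that 1 fragment can leave, and 14 did when each read was counted singly.

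The difference of day 1 lay on the side of the siCtrl library, the shallowest of the 8 at 7850497 reads. The siKlf5 library of day 1 was close to it in depth, at 8119452 reads. From day 0 to day 1 the median of the 22 was -0.55 in siCtrl cells (-0.09 for all transcripts), with 5 of 22 higher, and it was 0.07 in siKlf5 cells (-0.06 for all). On day 2 siCtrl cells were back at a median of -0.04 from day 0. Among the named genes, Hoxc11, Hoxa10, Hoxa11 and Hoxa9 were over 1.5-fold lower in siCtrl cells on day 1 than on day 0, with counting intervals that left out 0. The part of depth in this was not tested.

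On the other days fewer members differed. On day 0, 3 of 22 were over 1.5-fold higher in siKlf5 cells (8.18% of all transcripts) and 6 were lower (10.0% of all). On day 2, 3 were higher (6.78% of all) and 2 lower (11.6% of all), and on day 3, 3 were higher (9.90% of all) and 3 lower (11.6% of all). The counting interval of 1 of 22 members left out 0 on each of these days, which on day 0 was that of Hoxc13. Hoxc13 read 24.6 in siKlf5 cells and 47.7 in siCtrl cells on day 0 (log2 ratio -0.93, interval -1.85 to -0.11), but 82.1 and 56.4 on day 3.

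**Figure D5:**
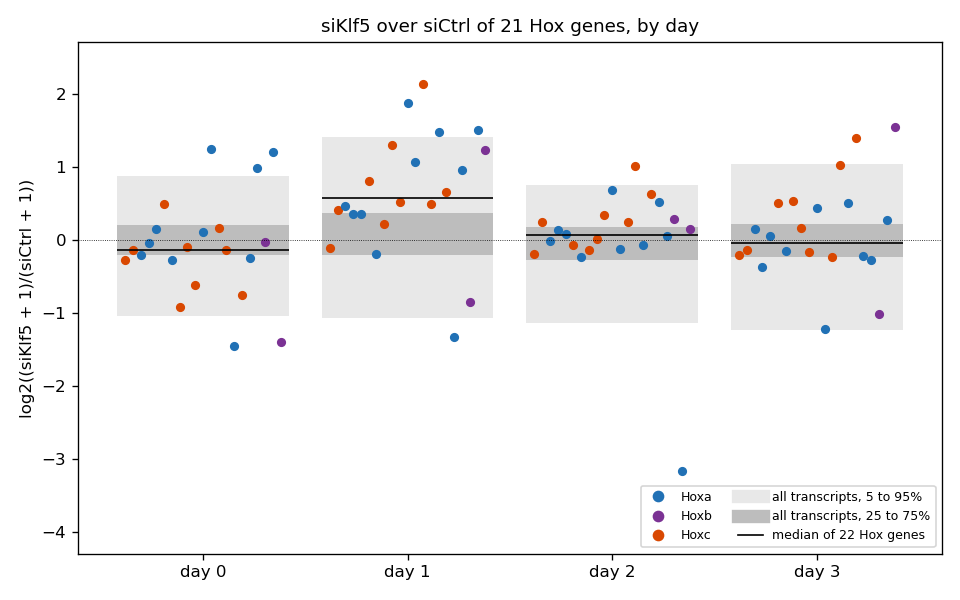
Log2((siKlf5 + 1)/(siCtrl + 1)) of 21 of the 22 expressed Hox genes on each day, with 1 point per gene in order of mean FPKM from left to right, coloured by cluster, and a black line at the median of the 22. Grey bands give the spread of all 14312 transcripts. On day 1 the median of 0.58 lies above the inner band, and on the other days the points scatter about 0, the widest being low members at the right.

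Other transcripts of the clusters moved in both directions. The table lists Hoxa11os, which lies antisense to Hoxa11, at a mean of 110, and it was lower on day 3 (limma log2 change -0.45 ± 0.16, adjusted p = 0.0477). Mira, a noncoding transcript of the HoxA cluster, had a mean of 54.0 and was higher on day 3 (0.79 ± 0.26, adjusted p = 0.0404). Hoxaas3 had a mean of 7.20 and was lower on day 3 (limma, -2.21 ± 0.64, adjusted p = 0.0246), with 0 in siCtrl and 3.36 in siKlf5 cells on that day. Few reads lay behind this call, 14 in siCtrl and 13 in siKlf5 cells on day 0, and 0 and 5 on day 3. Reads of both strands were counted for these transcripts too. The span of Hoxa11os overlaps that of Hoxa11, and the span of Hoxaas3 holds Hoxa5 and Hoxa6, each on the other strand. The part of these Hox genes in the levels and changes of Hoxa11os and Hoxaas3 was not tested. Hotair, the HoxC transcript known for its link to Polycomb, had a mean of 22.3 and 0.23 ± 0.45 (adjusted p = 0.742). Hottip had a mean of 0.048. Mir10a, Mir10b, Hoxd3os1 and Evx2, which lie in or beside HoxB and HoxD, were listed at 0 in all 8 libraries. The rows of Mir10a and Mir10b span 109 and 67 bases, and poly(A) RNA was sequenced, so their 0 says little of these genes. Of the 6 cluster transcripts of the list fixed for these tests that passed the filter, 1 was called higher and 1 lower on day 3, with 13.3% and 18.3% of all transcripts called in these directions.

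The cofactors with which Hox proteins bind DNA were all present. Each of the 9 TALE homeodomain genes examined passed the filter, led by Pbx2 at 146 and Meis2 at 127, and 1 of 9 was called on day 3, against 13.3% of all transcripts higher and 18.3% lower. This was Pknox2, higher by 1.36 ± 0.28 (limma, adjusted p = 0.00466). Of the 20 Polycomb genes, 6 were lower (18.3% of all transcripts) and 1 higher (13.3% of all) on day 3. Ezh2, the H3K27 methyltransferase of dividing cells, fell by 1.51 on the log2 scale (limma, adjusted p = 4.69e-05), with its partners Suz12 (-0.86) and Eed (-0.75) and with Phf19 (-1.44), Cbx2 (-0.96) and Phc2 (-0.48) also lower. Ezh1, the methyltransferase found in nondividing cells, was higher by 1.35 (adjusted p = 0.000480). The median over the 20 was -0.24, against -0.08 over all transcripts. Of the 10 Trithorax and H3K27 demethylase genes, Men1 alone was called, lower by 0.91 (limma, adjusted p = 0.000688), and the highest were Dpy30 at 295 and Ash2l at 219. Between siRNAs limma called 0 of the 9 TALE, 20 Polycomb and 10 Trithorax genes, with 0, 2 and 0 respectively at an unadjusted p under 0.05. This does not show that each kept its level. Pbx3 read 43.6, 35.4, 110 and 109 in siCtrl cells on days 0 to 3 and 61.8, 31.6, 41.3 and 30.4 in siKlf5 cells. Its limma change was -0.71 ± 0.40 (adjusted p = 0.623), and a difference limited to some days was not tested.

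Genes of limb and trunk position outside the clusters were partly expressed. Tbx4, the T-box gene of the hindlimb, had a mean of 3.41, below the 6.95 of the median transcript. It rose by 2.51 on day 3 (limma, adjusted p = 0.0164), from 4 reads in siCtrl and 0 in siKlf5 cells on day 0. Tbx5, the T-box gene of the forelimb, had a mean of 0.146. Pitx1, like Tbx4 a gene of the hindlimb, was at 0 in all 8 libraries. Tbx15 went from 72.7 on day 0 to 491 on day 3 in siCtrl cells (limma change 2.72, adjusted p = 2.06e-07). Tbx18 was higher by 0.79 (limma, adjusted p = 0.0179) and Msx2, with a mean of 3.72, was lower by 2.92 (adjusted p = 0.0198). In all, 4 of 12 such genes that passed the filter were higher (13.3% of all transcripts) and 1 lower (18.3% of all) on day 3. The Cdx and ParaHox genes, relatives of the Hox genes outside the clusters, were at 0 in all libraries for 5 of 6, and Cdx4 had a mean of 0.04.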

How the data were processed

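Poly(A) RNA of C2C12 cells was measured in 8 libraries, 1 per siRNA and day. The ChIP samples were not analysed here. Alignment of the read pairs to mm9 (STAR) and counting over RefSeq exons without regard to strand (HOMER) were done by the authors, who limited each position to 3 reads and each gene to 1 transcript. For these steps, versions are not given in the sources used here. The unit of the deposited table is FPKM, scaled by the authors to a matrix total of 10000000 per library. The log2 columns the authors deposited hold log2 of FPKM plus 1 plus a number between 0 and 1 and served 1 alternative, and 1 of them, which names no day, was not used.

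Reads behind each value were recovered from transcript length, and in each library 100% of those checked, 1777 to 2024 in number, came within 0.1 of a whole read. The filter on low values kept the 14312 transcripts whose mean reached 1, and the pseudocount was 1. Ratios of 2 libraries have no test, and those over 1.5-fold were counted. Their 95% exact binomial intervals use reads divided by 6, since reads of 1 fragment are not independent, and cover counting error only. limma (3.58.1, R 4.3.3, variance trend, robust) fitted day plus siRNA over 8 libraries with Benjamini-Hochberg adjustment and a threshold of 0.05. Its p-values measure only the spread between these libraries, which may be technical. The fit was also run on simulated counts for the siRNA difference, with counting error only and no change with day. Such counts lack the spread between libraries, so that run says nothing of how the fit handles it. Windows before the deposited starts and antisense exons came from mm9 and GENCODE M1. Genes described in full were the 3 with the highest mean in each cluster with expressed members (2 in HoxB, none in HoxD passing the filter) and every Hox gene past the test for the siRNA or day 3. The Hox genes, lists and tests were chosen with earlier results of these data known. Alternatives were other pseudocounts, filters, scalings, cutoffs, fits and leaving out each library. Other tools were Python 3.11.15 with pandas 2.3.3, numpy 2.4.6, matplotlib 3.10.9 and scipy 1.17.1. The values of a few genes and the sequences of some windows are not reported here.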

Additional observations from a re-analysis of the deposited data

Results flagged for a closer look

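5 of 21 Hox genes (23.8%) had ratios over 1.5-fold in opposite directions on different days or in different courses, compared with 13.7% of all 14312 transcripts, at whatever level. All had a mean FPKM of at most 13.1 and between 76 and 426 reads over the 8 libraries, and the differences between days or courses were not tested, since each rests on single libraries. The siKlf5 to siCtrl log2 ratio of Hoxa13 was 1.5 on day 1 and -3.17 on day 2. Hoxa3 had -1.46 on day 0 and 1.47 on day 1. Hoxb3 had -1.41 on day 0 and 1.55 on day 3, and Hoxc8 had -0.76 and 1.40 on the same days. Hoxa6 had 1.24 on day 0 and -1.23 on day 3. From day 0 to day 3 the log2 ratio of Hoxa6 was 1.34 in siCtrl cells and -1.12 in siKlf5 cells.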

How the results depend on the processing

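The siRNAs were paired by day in the fit, since day was one of its terms, and with 1 library per siRNA and day no replicate number was there to pair by. Hox gene calls of limma for the siRNA were 0 in every alternative, as in the fit reported, where Klf5 itself was not called, so that they say nothing of stability. Calls over all transcripts ranged from 0 to 42 when 1 library was left out and were 0 with no filter, 0 without the variance trend and robust options together and 39 with the deposited log2 columns. On day 3, calls without 1 library were 0 to 2 Hox genes higher, 0 to 3 lower and 2634 to 5075 transcripts. On day 1 they were 0 to 4 Hox genes and 1088 to 2386 transcripts, and on day 2 they were 0 to 4 and 1418 to 4049. With no filter on low values, 0 Hox genes were called on any day, and 40, 131 and 463 transcripts on days 1, 2 and 3, with more transcripts tested. Without the trend and robust options 856, 1639 and 2926 transcripts and, on day 3, 1 Hox gene lower and 0 higher were called. A mean of at least 5 gave 2 Hox genes on day 1 and 2 on day 2, and the deposited log2 columns gave 4, 3 and, on day 3, 2 higher. The cause of these moves was not tested.

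Hox genes past the cutoff numbered 4, 8 and 3 on days 0, 1 and 2 with a pseudocount of 5, and 4, 8 and 3 with a 2-fold cutoff, which gave 3 and 6 for day 3 against day 0 in siCtrl and siKlf5 cells. With no filter they numbered 8 on day 2 and 10 on day 3. With single reads 10, 14, 7 and 10 counting intervals left out 0 on days 0 to 3. Direction changed for members near 0. With the deposited log2 columns the siKlf5 change was -0.030 for Hoxa10, -0.10 for Hoxa11 and -0.0089 for Hoxc11. Without 1 library it ranged from -0.031 to 0.19 for Hoxa10, -0.10 to 0.14 for Hoxa11, -0.011 to 0.17 for Hoxc11, -0.29 to 0.20 for Hoxc13 and -0.015 to 0.97 for Hoxb3, and the day 3 change ranged from -0.14 to 0.26 for Hoxa10, -0.22 to 2.16 for Hoxb3 and -0.55 to 0.26 for Hoxb4. Counts of Hox genes at a mean of 1 and the 10 highest Hox genes moved by less than 1.5 times under the median, another scaling and without the day 1 libraries, the last chosen after seeing the data.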
